A study of Mus musculus with 2 samples.

Results

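The regions described here are the strongest open chromatin sites of sorted control cells of the fetal mouse kidney that lie away from the ends of genes. They were chosen by the control library's own peak values: a peak had to fall in the top decile (10%) of the control list by the peak caller's −log10 p, to lie on chromosomes 1 to 19 or X, and to be more than 1000 bp from both ends of every annotated gene. Of 77529 control peaks, 7749 passed the cut on strength on these chromosomes and 794 met the whole rule. Brg1cKO/cKO cells gave 1 ATAC-seq library with 61210 peaks, and WT control cells gave 1 library with 77529. For each library tdTomato-positive cells were sorted from E18.5 (late fetal) mouse kidneys, and 50000 cells went into each reaction. Brg1, the product of Smarca4, is an ATPase of the BAF chromatin remodelling complex, and the genotype name gives the conditional allele for both copies. The sources used here do not state the Cre driver, or how many animals gave the cells of a library. Only the cKO library has the Wnt4 lineage in its cell type label; that of the control library reads control. Since each genotype had 1 library, spread between replicates could not be measured and genotypes were not tested against each other. All intervals below are 95% intervals for counting error alone and describe these 2 peak lists.

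ATAC-seq marks DNA that a transposase can reach, and its strongest signal usually comes from the nucleosome-free start sites of active genes. Distal enhancers and insulators give smaller peaks as a rule. Many gene loci hold more than one start site, and a start inside the annotated span of a gene lies away from both of its ends. Many start sites in mammals lie in CpG islands, stretches rich in the dinucleotide CG that stay largely unmethylated. Cells that turn on Wnt4 in the fetal kidney go on to form nephron epithelium.

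The data went against calling all of these regions distal, since many held a transcript start inside a gene. RefSeq transcript start sites with a printed promoter sequence, called listed starts below, were available for every chromosome used except 18. On those chromosomes 389 of 769 strong peaks away from gene ends held a listed start (50.6%, 47.0 to 54.2%). Among all control peaks there, 17.0% held one. Of the strong peaks beside gene ends, 5662 of 6763 held one (83.7%, 82.8 to 84.6%), and of the weaker control peaks away from gene ends, 929 of 53383 (1.74%, 1.63 to 1.85%). Of the 389, 323 held 1 listed start and 66 held more. The list of starts is not complete, so the other 380 peaks are those without a listed start rather than those without a start.

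The 6 listed starts shown next, each 250 bases before and 50 bases after the start, stand for the range of cover by cKO peaks that is described further on. Rfx1, Abcg2 and Rcan1 belong to the 10 regions least covered by cKO peaks, Arid1a and Cic to the fully covered ones, and Nrxn3 to the regions farthest from a gene end. Sequences are from RefSeq on GRCm38.p6, the assembly of mm10, given 5′ to 3′ on the strand of the gene. Capitals mark matches to 9 short motifs that were searched on both strands, and positions count from the transcript start, with negative ones before it. Rfx1 (chr8:84066586-84066885, plus strand) encodes a transcription factor of the RFX family, and Abcg2 (chr6:58640296-58640595, plus strand) an efflux transporter. Rcan1 (chr16:92400029-92400328, minus strand) encodes a regulator of calcineurin, Arid1a (chr4:133753936-133754235, minus strand) a DNA-binding subunit of the BAF complex, Cic (chr7:25281929-25282228, plus strand) the repressor capicua, and Nrxn3 (chr12:89812233-89812532, plus strand) a neurexin of the synapse.
Rfx1: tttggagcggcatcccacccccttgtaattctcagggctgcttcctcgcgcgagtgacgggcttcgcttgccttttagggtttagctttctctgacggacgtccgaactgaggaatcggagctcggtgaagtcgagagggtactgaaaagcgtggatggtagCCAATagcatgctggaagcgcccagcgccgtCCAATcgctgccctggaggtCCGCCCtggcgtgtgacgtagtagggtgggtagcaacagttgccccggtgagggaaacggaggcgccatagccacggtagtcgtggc
Abcg2: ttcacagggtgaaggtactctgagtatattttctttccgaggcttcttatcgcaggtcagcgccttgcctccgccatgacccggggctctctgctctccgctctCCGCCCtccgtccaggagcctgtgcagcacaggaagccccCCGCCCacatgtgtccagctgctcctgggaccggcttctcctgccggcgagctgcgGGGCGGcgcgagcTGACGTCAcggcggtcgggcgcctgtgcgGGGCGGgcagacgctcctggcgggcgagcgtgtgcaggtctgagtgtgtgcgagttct
Rcan1: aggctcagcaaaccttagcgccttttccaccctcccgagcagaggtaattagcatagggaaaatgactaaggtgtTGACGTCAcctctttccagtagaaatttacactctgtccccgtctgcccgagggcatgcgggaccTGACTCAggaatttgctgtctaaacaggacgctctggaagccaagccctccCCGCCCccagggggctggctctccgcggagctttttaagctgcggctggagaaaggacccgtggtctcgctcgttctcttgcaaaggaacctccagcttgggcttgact
Arid1a: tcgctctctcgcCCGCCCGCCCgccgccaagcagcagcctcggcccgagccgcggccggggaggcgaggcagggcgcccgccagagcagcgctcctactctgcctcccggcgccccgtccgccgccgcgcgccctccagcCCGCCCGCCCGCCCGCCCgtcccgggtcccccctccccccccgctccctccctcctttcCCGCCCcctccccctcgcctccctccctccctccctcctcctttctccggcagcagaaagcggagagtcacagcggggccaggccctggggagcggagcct
Cic: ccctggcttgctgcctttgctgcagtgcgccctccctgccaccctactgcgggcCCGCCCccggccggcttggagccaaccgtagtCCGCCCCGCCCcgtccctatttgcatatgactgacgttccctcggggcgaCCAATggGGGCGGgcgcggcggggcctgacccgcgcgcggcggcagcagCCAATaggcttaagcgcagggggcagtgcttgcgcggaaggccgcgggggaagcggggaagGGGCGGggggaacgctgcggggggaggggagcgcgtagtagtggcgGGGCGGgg
Nrxn3: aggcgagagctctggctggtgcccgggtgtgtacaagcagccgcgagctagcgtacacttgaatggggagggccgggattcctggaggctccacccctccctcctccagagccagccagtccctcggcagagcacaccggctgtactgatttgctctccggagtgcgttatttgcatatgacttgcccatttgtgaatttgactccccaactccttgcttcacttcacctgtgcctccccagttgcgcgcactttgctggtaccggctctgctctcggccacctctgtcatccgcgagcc

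In these windows CG dinucleotides numbered 25 at Rfx1, 28 at Abcg2, 14 at Rcan1, 36 at Arid1a, 34 at Cic and 16 at Nrxn3. The ratio of observed to expected CG was 0.93, 0.83, 0.59, 0.85, 0.83 and 0.59 in the same order. The longest runs of capitals at Arid1a and Cic are repeats of GGGCGG or its reverse complement, the letters bound by SP and KLF factors. By the first base of each match on the strand of the gene, Rcan1 held the CREB letters TGACGTCA at -175 and the AP-1 letters TGANTCA at -110. Abcg2 held TGACGTCA at -37, Rfx1 held the NF-Y letters CCAAT at -88 and -57, and at Nrxn3 none of the 9 motifs was found in this window.

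Over all 478 listed starts in strong peaks away from gene ends, 473 belonged to protein-coding genes and 5 to long noncoding RNA genes. Their median ratio of observed to expected CG was 0.80 (quartiles 0.64 and 0.91), against 0.83 (0.70 and 0.95) at 8221 starts in strong peaks beside gene ends and 0.39 at all 32619 listed starts. A ratio of at least 0.6, a common criterion for a CpG island, was reached by 385 of the 478 (80.5%, 76.7 to 84.0%), against 86.1% (85.4 to 86.9%) beside gene ends and 36.0% of all listed starts. The median GC content was 63.7%, against 64.0% beside gene ends and 53.0% overall. Starts inside genes with a strong peak thus had slightly lower CG ratios than those beside gene ends, and both medians were above that of all listed starts. All listed starts are an unlike set, since 11574 belonged to long noncoding RNA genes and 15754 lay in no control peak. At the 1059 starts in weaker peaks away from gene ends the median ratio was 0.43, and 31.4% reached 0.6.

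**Figure D1:**
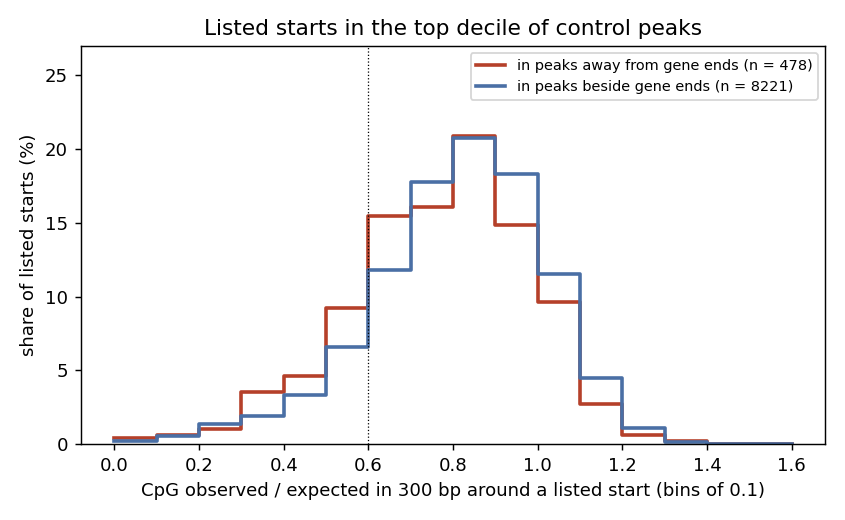
Share of listed starts (y axis, %) by the ratio of observed to expected CG in the 300 bp window (x axis, bins of 0.1), for 478 starts in strong control peaks away from gene ends and 8221 in strong control peaks beside gene ends. The dotted line marks 0.6, which 80.5% and 86.1% of the starts reached.

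Motifs were counted in the same windows as a description of their letters. GGGCGG was found at 70.9% of starts in strong peaks away from gene ends, at 73.6% beside gene ends and at 35.9% of all listed starts. The ETS letters CCGGAAG were found at 13.8% (10.8 to 17.2%), 20.7% (19.8 to 21.6%) and 8.92%. CCAAT stood at 35.8%, 41.0% and 37.6%. The AP-1 letters TGANTCA were found at 4.81% (3.07 to 7.13%), 3.30% (2.92 to 3.71%) and 7.85%, and the TATA letters TATAAA at 3.97%, 4.95% and 13.7%. The NRF1 letters GCGCATGC were found at 5.65%, 6.22% and 2.72%, the YY1 letters AAGATGGC at 3.97%, 5.06% and 2.76%, the CREB letters at 2.09%, 3.70% and 1.80%, and the E-box CACGTG at 7.95%, 11.0% and 7.20%. At the 1059 starts in weaker peaks away from gene ends, GGGCGG was found at 42.1%, the ETS letters at 6.04% and the AP-1 letters at 7.08%. The counting intervals of the ETS shares in strong peaks away from and beside gene ends did not overlap, and those of the AP-1 shares did. Intervals over starts, here and for the CG ratios, count each start as separate. Some peaks held more than 1 start, so windows can share bases and these intervals may be too narrow.

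The listed starts lay a median of 7789 bp downstream of the outermost annotated 5′ end of their gene (quartiles 3830 and 22668 bp) and 73 bp from the summit of the peak that held them (quartiles 28 and 216 bp). They belonged to 387 genes. At the outermost 5′ end of these same genes, a cKO peak lay within 1000 bp in 209 cases (54.0%, 48.9 to 59.1%) and a control peak in 215 (55.6%, 50.4 to 60.6%). Of the 387 outermost ends 90 had a control peak of the top decile (23.3%). These shares were not counted over the outermost 5′ ends of all genes. A control peak of the top decile lay within 1000 bp of either end at 36.6% of all protein-coding genes, which is an unlike measure. At the Rfx1 start the distance to the outermost end was 3272 bp, at Abcg2 56055 bp and at Nrxn3 1089782 bp.

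Strength and distance from gene ends were closely linked in the control list. Peaks over 1000 bp from every gene end made up 72.5% of all control peaks but 10.2% of the top decile (9.58 to 10.9%), 40.2% of the second and 72.2% of the third, and 88.2% of the lowest. In the cKO list the same rule kept 548 of 6111 peaks of its own top decile (8.97%). The share of such control peaks with a listed start was 50.6% in the top decile, 12.9% (11.7 to 14.2%) in the second and 2.90% in the third, and 0.533% in the lowest. Strong open sites that lacked both a nearby gene end and a listed start were therefore few, 380 on the chromosomes with listed starts. Of these, 231 lay inside an annotated gene and 149 outside every annotated gene.

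**Figure D2:**
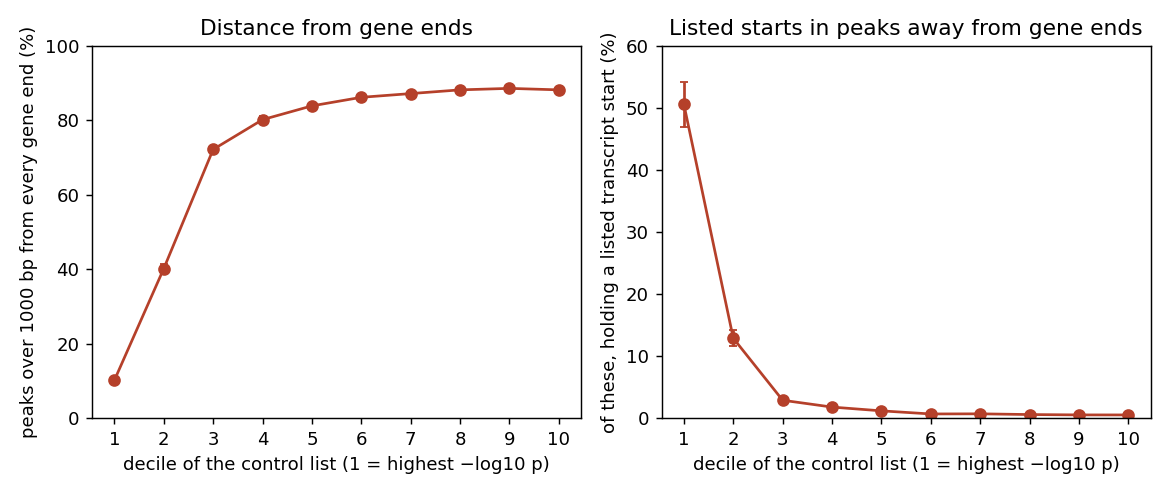
Left, share of control peaks more than 1000 bp from every gene end (%) by decile of the control list, from the highest −log10 p (1) to the lowest (10). Right, share of those peaks that held a listed start (%), chromosome 18 left out; bars are 95% exact binomial intervals. Both curves change most over the first 3 deciles, with 10.2%, 40.2% and 72.2% on the left and 50.6%, 12.9% and 2.90% on the right.

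The −log10 p of the 794 regions ran from 10.16 to 20.38, with a median of 11.02, against a median of 11.24 in the 6955 strong peaks beside gene ends. At the lower limit 7 of the regions were tied at 10.16. Just below the limit, at 10.156, lay a peak on chromosome 4 at 43405068 to 43408113, and 78.8% of it was covered by cKO peaks. Of others at this value, on chromosome 10 and on chromosome 4, 90.6% and 86.4% were covered. The region nearest to a gene end lay 1001 bp away (chromosome 3, 95657945 to 95660574), and the first peak on the other side of that limit lay 1000 bp away (chromosome 11, 50376257 to 50379312). These values chose the regions and are given as a description.

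The regions were broad. Their median width was 2005 bp (quartiles 1587 and 2582 bp, range 131 to 7949 bp), against 2095 bp (quartiles 1708 and 2658 bp) in strong peaks beside gene ends and 721 bp in weaker peaks away from gene ends. Those with a listed start had a median of 2096 bp and those without one 1920 bp. At least 4 kb was reached by 46 regions, and 21 were narrower than 500 bp, whereas 1 strong peak beside a gene end was.

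The 5 widest regions were nearly whole in the cKO list. The widest, 7949 bp long, lay outside every protein-coding gene, 12.4 kb from Zswim4 (chromosome 8, 84196801 to 84204749). The next, of 7870 bp, lay within Bcar1, which encodes an adaptor protein of focal adhesions (chromosome 8, 111729306 to 111737175), and held its listed start. A region of 7398 bp lay within Nr2f2, the gene of the orphan nuclear receptor COUP-TFII (chromosome 7, 70355764 to 70363161). Regions of 6690 bp and 6590 bp lay within Plec, which encodes the cytoskeletal linker plectin (chromosome 15, 76194844 to 76201533), and within Cic (chromosome 7, 25277700 to 25284289). The cKO peaks covered 97.0%, 96.1%, 98.0%, 100% and 100% of these regions in the order given.

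**Figure D3:**
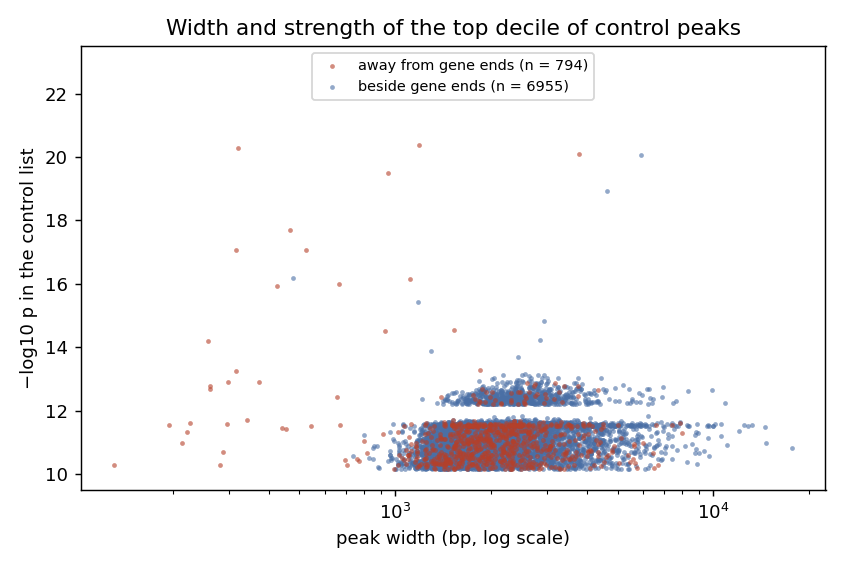
Width (x axis, bp, log scale) and −log10 p in the control list (y axis) of the top decile of control peaks, with 794 peaks away from gene ends and 6955 beside them. Most peaks of both kinds lie between 1 and 4 kb, and a scatter of narrow peaks, 21 of them under 500 bp, lies away from gene ends.

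The regions with the very highest −log10 p differed from most others in width and position. Of 15 regions with a value over 13, none held a listed start, 11 lay outside every annotated gene and 6 were narrower than 500 bp, against 1 narrow peak among the 22 such peaks beside gene ends. A set of 3 regions lay close together on chromosome 2 (98662187 to 98663135, 98664842 to 98665267 and 98666193 to 98667377), over 1 Mb from the nearest protein-coding gene, Lrrc4c, with −log10 p of 19.50, 15.94 and 20.38. The others among the 10 highest were a 320 bp region on chromosome 12 (3109826 to 3110145; 20.30), a 3792 bp region on chromosome 14 near Gm2244 (19415664 to 19419455; 20.08), a 466 bp region on chromosome 9 near Rpusd4 (35305171 to 35305636; 17.71), a 523 bp region on chromosome 3 near Pex2 (5860294 to 5860816; 17.08) and a 315 bp region within Chl1 on chromosome 6 (103649023 to 103649337; 17.06). Regions within Zc3h7a (chromosome 16, 11143558 to 11144670; 16.15) and within Filip1l and Cmss1 (chromosome 16, 57391068 to 57391731; 16.00) completed them. Except at Zc3h7a, cKO peaks covered at least 99.4% of each of the 10. At the regions near Rpusd4 and Pex2 and within Filip1l the control and cKO peaks had the same edges. The chromosome 2 locus is known from other sequencing data as one that collects excess reads in many cell types. Whether it or any other of the 10 regions did so here was not tested.

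The cKO list also had peaks over these regions. All 794 were overlapped by a cKO peak, and in all 794 cKO peaks covered at least 50% of the region (interval 99.5 to 100%). To that extent 72.2% of all control peaks were covered, but also 99.9% of strong peaks beside gene ends. Of second-decile peaks away from gene ends 98.1% were, so this was not particular to the 794. The median region was 98.0% covered (97.4 to 98.5%, quartiles 92.4 and 99.9%), the least covered region 51.1%. Strong peaks beside gene ends gave a median of 98.1% (97.9 to 98.2%), and weaker peaks away from gene ends 81.4%. Full cover was found for 191 of the 794 (24.1%, 21.1 to 27.2%), against 20.5% (19.6 to 21.5%) beside gene ends and 18.1% of all control peaks. Cover below 80% was found for 48 (6.05%, 4.49 to 7.94%), against 4.01% (3.56 to 4.50%) beside gene ends. The intervals of the medians overlapped, and those of the shares under 80% touched at their limits.

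Within classes of width the shares under 80% were 5.16% (2.78 to 8.66%), 6.82% (3.57 to 11.6%), 3.70% (1.50 to 7.48%) and 9.04% (5.26 to 14.3%) from the narrowest to the widest of 4 classes, against 2.31%, 4.32%, 4.18% and 5.17% beside gene ends. The order was thus not the same in every class, and within each class but the narrowest and the widest the interval held the value from beside gene ends. Regions with a listed start had a median cover of 97.5% (96.8 to 98.1%) and those without one 98.6% (98.0 to 99.2%). Their shares under 80% were 5.66% (3.58 to 8.44%) and 6.58% (4.30 to 9.56%). Without the 21 regions under 500 bp, which cKO peaks covered to at least 93.5%, the median over the remaining 773 was 97.9%.

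**Figure D4:**
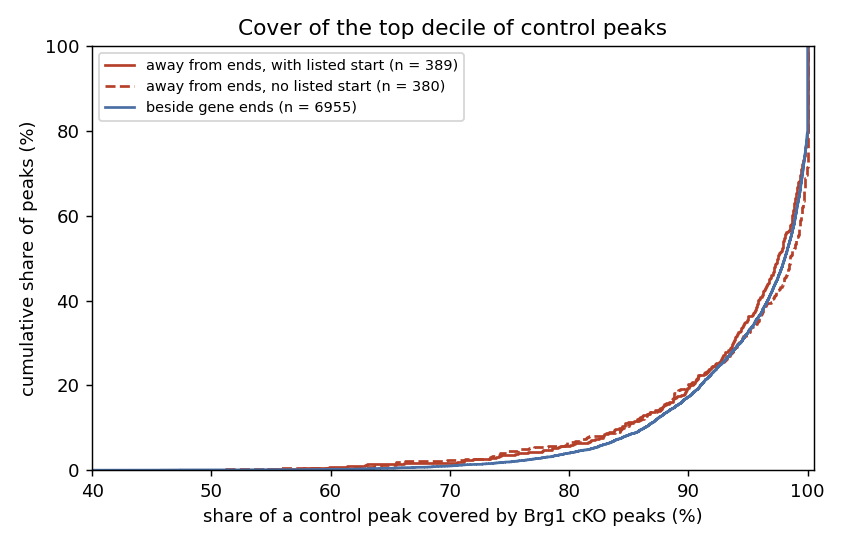
Cumulative share of control peaks of the top decile (y axis, %) by the share of each peak that cKO peaks cover (x axis, %), for 389 peaks away from gene ends with a listed start, 380 without one and 6955 beside gene ends. The 3 curves run close together, with medians of 97.5%, 98.6% and 98.1%, and no peak away from gene ends lies under 51.1%.

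Most bases without a cKO peak lay at the flanks. A region under a single cKO peak, as most were, can lack cover only at its edges. Of 1.75 Mb in the 794 regions, 98.6 kb were not covered (5.64%), and 92.3% of those bases lay at the outer edges rather than in gaps between cKO peaks. Beside gene ends 4.84% of bases were not covered, 94.8% of them at the edges. Of the bases of a region within 250 bp of its control summit, all were covered at 778 regions (98.0%, 96.7 to 98.8%), against 99.8% (99.7 to 99.9%) beside gene ends. In none was less than 50% of these bases covered. With bases past the edges of narrow regions counted too, 95.5% were fully covered. All 478 listed starts in these regions lay in a cKO peak, where the count allows a lower bound of 99.2%, and 99.9% of the starts in strong peaks beside gene ends did. At an edge where a region extended past its cKO peaks, the median excess was 44 bp. Regions that extended past them at both edges numbered 231, at 1 edge 369 and at neither 194.

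The strongest cKO peak over a region had a median width of 1958 bp, against 2005 bp for the control regions themselves, and was wider than the region in 324 cases (40.8%). Its summit lay within 100 bp of the control summit at 736 regions (92.7%, 90.7 to 94.4%), with a median shift of 3 bp. The control summit lay outside every cKO peak at 1 region, 1321 bp long and nearest to Klrb1b (chromosome 6, 128802461 to 128803781). A single cKO peak overlapped most regions. In 34 cases (4.28%, 2.98 to 5.93%) there were 2 or more, against 2.10% (1.78 to 2.46%) beside gene ends and 1.29% of all control peaks. The 2 regions with 3 cKO peaks lay within Amotl2, which encodes an angiomotin-like protein (chromosome 9, 102722730 to 102727388, 85.5% covered), and near Anks1 (chromosome 17, 28012642 to 28016849, 84.9%).

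Most of these sites also ranked high among cKO peaks. The strongest overlapping cKO peak belonged to the top decile of the cKO list at 544 regions (68.5%, 65.2 to 71.7%), to the second decile at 245 and to a lower one at 5. Beside gene ends 79.7% (78.8 to 80.7%) belonged to the top decile. The deciles differ in size, with 6111 peaks in that of the cKO list and 7749 in that of the control list. In the top 5% of the control list the shares were 99.1% (97.3 to 99.8%) away from and 99.9% beside gene ends, and in the next 5% 47.4% (42.9 to 52.1%) and 58.8% (57.1 to 60.5%). The shares of the kinds of peak were thus close in the top 5% and differed in the next 5%. The kinds of peak were also split differently between these parts of the list. Away from gene ends 324 regions stood in the top 5% and 470 in the next 5%, against 3543 and 3412 peaks beside gene ends. How much of the difference between 68.5% and 79.7% came from this split was not tested. Of the 5 regions whose cKO peak ranked below the second decile, that nearest to Pdia4, the gene of a protein disulphide isomerase, ranked lowest, in the fourth (chromosome 6, 47767582 to 47768742, 66.2% covered).

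The same rule applied to the cKO list gave 548 strong cKO peaks away from gene ends. Control peaks covered a median of 99.6% of each (99.2 to 99.7%) and under 80% of 13 (2.37%, 1.27 to 4.02%), whereas cKO peaks covered under 80% of 6.05% of the 794 control regions. Strong cKO peaks beside gene ends had a median cover of 99.3% and 2.32% under 80%, so both kinds of peak were covered more fully in this direction. The covering list is also longer in this direction, with 77529 control peaks against 61210 cKO peaks, and no adjustment was made for that. Of the 548, 535 overlapped one of the 794 control regions. The strongest control peak over them belonged to the top decile of the control list at 539 (98.4%, 96.9 to 99.2%).

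The 10 least covered regions included 6 with a listed start inside a gene. The lowest was the 1113 bp region within Zc3h7a, a zinc finger gene, of which 51.1% was covered (chromosome 16, 11143558 to 11144670). The others were within Dcakd and nearest to an end of the myristoyltransferase gene Nmt1 (chromosome 11, 103016314 to 103018161; 54.8%), within Jarid2, which encodes a partner of Polycomb repressive complex 2 (chromosome 13, 44731847 to 44735889; 55.7%), and within Rfx1 (chromosome 8, 84065878 to 84070216; 57.7%). At Rfx1 the cKO peak ended at 84068390, so the missing stretch lay on the side of the gene body, while the start printed above was covered. Next came regions within Abcg2 (chromosome 6, 58639488 to 58642104; 59.8%), within Cilk1, a kinase gene of the primary cilium (chromosome 9, 78112813 to 78114513; 61.4%), and 42.2 kb from Tsc22d2 (chromosome 3, 58370928 to 58373486; 62.2%). Regions within Slc3a2, the gene of the heavy chain of several amino acid transporters (chromosome 19, 8711563 to 8714580; 62.9%), within Rcan1 (chromosome 16, 92398263 to 92401211; 63.1%) and within Arid3b, an AT-rich DNA-binding factor gene (chromosome 9, 57830428 to 57832378; 63.6%), completed them. At 7 of the 10 the strongest cKO peak was still in the top decile of the cKO list. These are the lowest of 794 values and were picked as such.

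**Figure D5:**
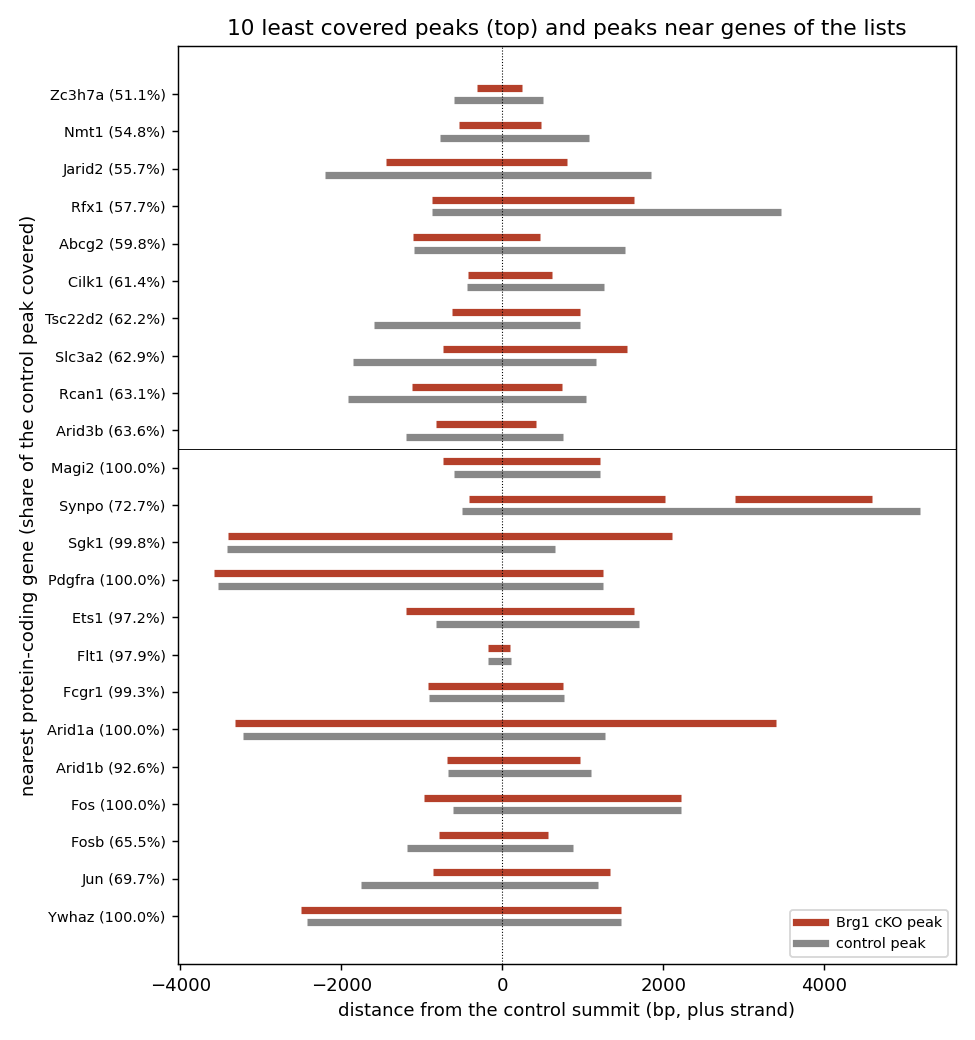
Extent of cKO peaks (above) and of the control region (below) in bp from the control summit on the plus strand, for the 10 least covered regions (over the line) and for regions nearest to 13 genes of the lists (under the line). The percentages are the share of each control region that cKO peaks cover, from 51.1% at Zc3h7a to 100% at several genes.

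In position, 612 of the 794 regions had their summit inside a protein-coding gene (77.1%), against 58.1% of weaker peaks away from gene ends. Of the regions with a listed start 388 of 389 did, and of those without one 204 of 380 (53.7%, 48.5 to 58.8%). Whether a region lies in an exon or an intron is not analysed here. The summit lay a median of 9110 bp from the nearest end of a protein-coding gene (8250 to 10418 bp), against 24572 bp for weaker peaks, and 415 summits lay within 10 kb. More than 100 kb separated 48 regions from any such end (6.05%), against 16.0% of the weaker peaks. The per-chromosome share of peaks away from gene ends that were in the top decile ran from 0.906% on chromosome 10 to 2.04% on chromosome 7, with 1.19% on chromosome X.

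The regions farthest from a protein-coding gene were a 227 bp region 2137.7 kb from Cntnap5b (chromosome 1, 102628146 to 102628372), the 3 regions of chromosome 2 already named, and the region at the Nrxn3 start, 522.6 kb from the nearest end of that gene and inside it (chromosome 12, 89811306 to 89813121). Of the Cntnap5b region cKO peaks covered 99.6%, and of the Nrxn3 region 95.3%. Regions inside genes longer than 300 kb numbered 46.

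The 794 regions were spread over 750 nearest protein-coding genes, of which 713 were nearest to 1 region, 32 to 2, 4 to 3 and 1 to 5. The 5 regions nearest to Alkbh8 lay on chromosome 9 between 2999958 and 3025176, 310.7 to 334.3 kb away, with cover of 97.7 to 100%. Whether this cluster collects excess reads was not tested either. Lrrc4c had the 3 regions on chromosome 2. Bahcc1 had 3 regions outside protein-coding genes, 13021, 18708 and 23893 bp away (chromosome 11, 120304096 to 120309238, 120310402 to 120312030 and 120315192 to 120317854), with cover of 99.7%, 100% and 95.8%. Chd2, which encodes a chromatin remodeller, had 1 region inside the gene (chromosome 7, 73537012 to 73538566; 97.1%) and 2 outside it (73594485 to 73596221 and 73616604 to 73619528; 99.4% and 91.6%). Vgll4, whose product binds TEAD factors, had 3 regions inside the gene (chromosome 6, 114873322 to 114877014, 114888457 to 114889562 and 114920286 to 114922611) with cover of 83.0%, 75.7% and 99.8%. None of the Vgll4 regions held a listed start.

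Of the 32 genes nearest to 2 regions, 5 are named here. Cover was 99.2% and 99.4% near 1700001O22Rik, 100% and 98.6% at Ankrd24, and 99.0% and 100% near the cytokinesis gene Anln. It was 100% and 93.1% at Arhgap23, and 90.1% and 96.2% at C87436. The fully covered region near Anln lay 22.3 kb from it, inside 9530077C05Rik, and held a listed start of that gene. Only 33 regions had another within 10 kb, and the median distance to the next one was 467425 bp.

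Genes of kidney cell types did not stand apart from protein-coding genes in general in how often they were nearest to such a region, within counting error. Of 21631 protein-coding genes 3.47% were nearest to one. Of 179 genes on the lists of cell types 7 were (3.91%, 1.59 to 7.89%), and of all 227 genes on 14 lists, which add BAF complex, AP-1 and TEAD, and housekeeping genes, 14 were (6.17%, 3.41 to 10.1%), each nearest to 1. The lists of nephron progenitor, early nephron, proximal tubule, loop of Henle, smooth muscle and pericyte, and collecting duct genes had none. A control peak of the top decile lay within 1000 bp of an end at 30 of the 179 cell type genes (16.8%, 11.6 to 23.1%) and at 70 of all 227 (30.8%, 24.9 to 37.3%), against 36.6% of all protein-coding genes. The 70 included 18 of 20 BAF complex genes, 13 of 16 AP-1 and TEAD genes, 11 of 20 podocyte genes and 9 of 12 housekeeping genes. They also held 6 of 20 interstitium, 5 of 20 early nephron, 2 of 20 nephron progenitor and 1 of 20 proximal tubule genes. Loop of Henle and distal tubule lists had 2 of 15 each, and the endothelial list 1 of 15. The smooth muscle and pericyte, collecting duct and immune lists had none. Of genes named for the study itself, Smarca4 (chromosome 9, 21616106 to 21704230) and Smarca2 (chromosome 19, 26605073 to 26778321), the ATPase genes of the BAF complex, each had 1 control peak of the top decile, at a gene end. Wnt4 (chromosome 4, 137277635 to 137299501) had none, and its strongest control peak stood in the second decile. A library of sorted cells of several types cannot tell a site open in few cells from one that is weakly open in many.

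The list genes with such a region are given by their roles. Among AP-1 genes, which respond within minutes to growth signals and stress, the Fos region lay 8.7 kb from the gene and was fully covered (chromosome 12, 85485383 to 85488218). The Fosb region, 10.0 kb away, was 65.5% covered (chromosome 7, 19318881 to 19320945), and the Jun region, 109.2 kb away, 69.7% (chromosome 4, 95159683 to 95162631). None of the 3 held a listed start, and at each the cKO peak was in the top decile of its own list. In the list for podocytes, cells of the glomerular filter, 2 genes had a region: that in Magi2, a scaffold of the slit diaphragm, was fully covered (chromosome 5, 20701498 to 20703311), and that in Synpo, an actin-binding protein, was 72.7% covered by 2 cKO peaks (chromosome 18, 60605782 to 60611474).

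Of the BAF subunit genes, Arid1a had a fully covered region at its listed start (chromosome 4, 133751219 to 133755725), where the cKO peak ran on to 133757845, and Arid1b a region outside a listed start with 92.6% cover (chromosome 17, 5189193 to 5190963). Sgk1, an aldosterone-induced kinase gene of the distal nephron, had 99.8% cover (chromosome 10, 21991135 to 21995207) and 3 listed starts in its region. The PDGF receptor gene Pdgfra of the interstitium was fully covered (chromosome 5, 75152774 to 75157563). In the endothelial list Ets1, a transcription factor gene, had 97.2% (chromosome 9, 32695200 to 32697719) and the VEGF receptor gene Flt1 97.9% of a 288 bp region (chromosome 5, 147611390 to 147611677). The region nearest to the Fc receptor gene Fcgr1, an immune gene, had 99.3% and lay outside protein-coding genes (chromosome 3, 96277301 to 96278975). The region within the housekeeping gene Ywhaz was fully covered (chromosome 15, 36791140 to 36795040). Over the 14 regions cover thus ran from 65.5% to 100%, within the range of the 794, whose median was 98.0%.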

How the data were processed

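The files were 1 narrowPeak list per library. The submitters' processing notes name Trim Galore, SAMtools, Genrich and mm10; their settings and versions, the aligner, and any duplicate removal or transposase shift were not stated. The deposited −log10 p and q and the deposited signal (area under the caller's curve) are the authors' values; no scaling between libraries is stated, so they ranked peaks within a list only. No read counts are given, so depth is unknown, and the lists stop at −log10 q of 1.35 (cKO) and 1.42 (control).

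The top decile was taken at or above −log10 p 10.16, ties included, which kept 7764 control peaks, 7749 of them on the chromosomes used. RefSeq genes on GRCm38.p6 gave the gene ends, and the promoter table of the same assembly, not complete and without chromosome 18, gave the listed starts. The nearest gene of a region is the protein-coding gene whose end lies closest to the summit. Cover is the percent of a control peak's bases inside cKO peaks. Shares have exact Clopper-Pearson intervals and medians exact order-statistic intervals, both at 95% and for counting error only. Python 3.11.15, pandas 2.3.3 and SciPy 1.17.1 were used, and the cover and distance functions were tested on simulated data. Coordinates are 1-based.

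The regions and gene lists were chosen with earlier results of these data known. Named are the 10 regions with the highest −log10 p, the 10 least covered, the 5 widest, the 5 farthest from a protein-coding gene, the 15 genes nearest to most regions (at most 5 of those tied at the last place), 2 genes per list, and Smarca4, Smarca2 and Wnt4. The third AP-1 gene, the regions that are exceptions in rank, summit or number of cKO peaks, the printed starts, the comparison with listed starts, the motifs searched there and the thresholds of 80% cover, 500 bp and −log10 p 13 were chosen after values were seen. No genome was used here, so the planned motif count around summits was not run. The region nearest to 1 gene of the housekeeping list is not reported here, though the counts include it.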

Additional observations from a re-analysis of the deposited data

How the results depend on the processing

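Of 110 values under 12 other settings, 76 stayed within the main interval (counts within 1.5 times). The difference in median cover from strong peaks beside gene ends, -0.06 points, changed sign with ends of protein-coding genes only (0.10) and was 0.00 in 500 bp around the summit, both inside its interval. With the top 5%, 324 regions near 313 genes had a median width of 2160 bp, 80.2% lay inside a gene and 58.2% held a listed start. With the top 20% there were 3903 regions near 2994 genes, of 1562 bp, 13852 bp from a protein-coding gene end, 64.0% inside a gene and 20.6% with a listed start; median cover was 96.1%, 1.82 points under strong peaks beside gene ends (a difference of -1.82), with 20.9% fully covered and 98.5% covered by at least 50%. Over 10000 bp from gene ends, 270 regions near 252 genes, of 2134 bp and 33642 bp away, had a median cover of 97.2% and a difference of -0.89. With ends of protein-coding genes only, 68.0% lay inside a gene and 54.3% held a start. With strength by area the width was 2546 bp, the distance 12133 bp, 7.85% had 2 or more cKO peaks and 43.1% held a start. With the stronger 50% of the cKO list, 99.2% were covered by at least 50% and 1.26% had 2 or more cKO peaks, and with cKO peaks under 300 bp apart joined 0.756% did. In 500 bp around the summit, also past the edges of narrow regions, the median cover was 100%, 95.5% were fully and 99.2% at least 50% covered. From the nearest base of the peak the distance was 8219 bp. The settings without tied or narrow regions, and all for the share with a start, were chosen after the data were seen. What moved the values was not tested. With no read counts, a base outside a cKO peak is not shown to be closed.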

Other observations

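Inside its top decile each list had a range of −log10 p without any peak, from 11.09 to 11.47 in the cKO list and from 11.84 to 12.20 in the control list. Above it in the cKO list lay 11.7% of the strong peaks away from gene ends and 13.7% of those beside them. In the control list 63 of the 794 strong peaks away from gene ends (7.93%) and 10.3% of those beside them did. Of the 61 control regions above the range on chromosomes with listed starts, 29 held one (47.5%, 34.6 to 60.7%), where 50.6% of all did. The 63 control regions had a median width of 2053 bp, and 10 were narrower than 500 bp. The source of the range without values was not tested.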
